A study of Oryza sativa Japonica Group with 12 samples.

Results

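The cellulose and mannan synthesis genes *CESA4*, *CESA9*, *BC1*, *CESA8* and *CSLA1* were followed in 6 rice lines. They were taken by symbol or synonym from the gene annotation. With a bHLH gene that shares the name BC1 kept apart, this gave 5 genes of the 23837 that had a probe set naming a single gene. Each was measured by 1 probe set, a group of short probes for the same transcript. They were chosen by their measured intensities, because they differed among ‘CH7’, ‘CH8’ and their hybrid ‘CH7/8’ on these same arrays. Their values in those 3 lines are therefore given as a description with no test, and the 5 genes were tested only among ‘CH9’, ‘CH7/9’ and ‘CH8/9’.

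Gene expression was measured on 12 Affymetrix arrays of temperate *japonica* rice, 2 for each line. The parents were ‘Aranghyangchalbyeo’ (‘CH7’, white pericarp), ‘Sanghaehyangheolua’ (‘CH8’, purple pericarp) and ‘Shinseonchalbyeo’ (‘CH9’, white pericarp), all of which are waxy rices, and ‘CH7’ and ‘CH8’ are also aromatic. ‘CH7/8’, ‘CH7/9’ and ‘CH8/9’ were their F1 hybrids, which the study describes as stunted and chlorotic, a state called hybrid weakness, and whose seed parent the labels do not name. Greenhouse plants were taken whole at tillering, the stage at which a rice plant forms side shoots, and each RNA came from an independent plant. A whole plant mixes leaf, sheath, stem base and root, so fewer cells of a type and less RNA per cell cannot be told apart.

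Cellulose is spun into the plant cell wall by complexes of CESA proteins in the plasma membrane. In rice, CESA4, CESA7 and CESA9 act together in the thick secondary walls of stems and vessels, while CESA1, CESA3 and CESA8 belong to the group that builds the thin primary walls of growing cells. BC1 (Brittle culm1) is a COBRA-like protein anchored at the cell surface that is needed for cellulose assembly in secondary walls, and plants that lack it have stems that snap. CSLA1 belongs to the cellulose synthase-like A family, whose enzymes make the backbone of mannans, a class of matrix polysaccharide.

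All values are log2 intensities, so a difference of 1 is a 2-fold change. The 12 arrays had medians between 3.45 and 3.64, and replicate arrays of a line correlated at r = 0.966 to 0.984 over 54922 probe sets. The arrays carry no detection calls, and the number of arrays limits the precision. Of 6 leaf marker genes, photosynthesis genes that should be strong in green tissue, the median gene lay between percentiles 75.9 and 89.1 of each array. However, 2 of the 6 lay under the array median on both arrays of each line except ‘CH7/8’, where 1 did. The median of 15 root markers lay between percentiles 27.6 and 46.3, and 8 to 10 of the 15 lay under the array median on both arrays of a line.

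Across all 6 lines, *CESA4*, *CESA9*, *BC1* and *CESA8* were highest in ‘CH8’, while *CSLA1* was highest in ‘CH8/9’. ‘CH7’ was lowest for each gene except *BC1*, for which ‘CH7/9’ was lower by 0.10. From the lowest to the highest line mean, *CESA4* spanned 15.3-fold, *CSLA1* 12.2-fold, *CESA9* 8.47-fold, *BC1* 6.83-fold and *CESA8* 4.39-fold. ‘CH9’ and ‘CH8/9’ lay in the middle or upper part of each gene's range, and ‘CH7/9’ lay beside ‘CH7’.

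**Figure D1:**
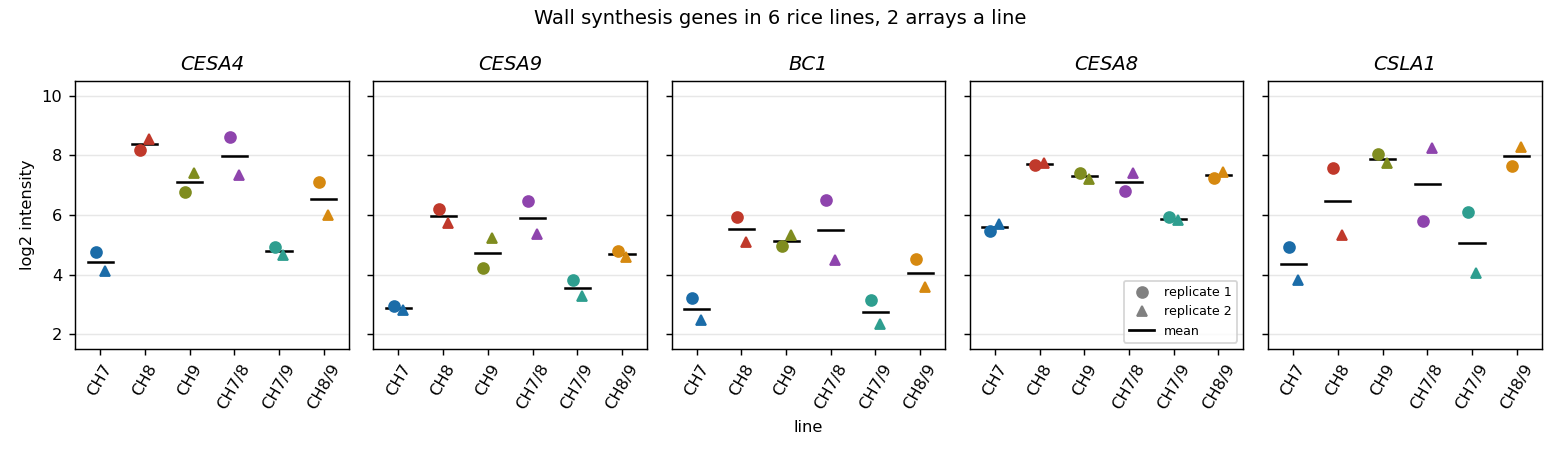
Log2 intensity (vertical axis) of the 5 genes in the 6 lines (horizontal axis). Circles are replicate 1, triangles replicate 2 and bars the mean of the 2 arrays. ‘CH7’ and ‘CH7/9’ lie lowest in each panel by their means, although replicate 1 of ‘CH7/9’ reaches 6.10 for *CSLA1*, and the 2 arrays of ‘CH8’, ‘CH7/8’ and ‘CH7/9’ lie far apart for *CSLA1*.

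The secondary wall synthase gene *CESA4* measured 4.76 and 4.11 on the 2 arrays of ‘CH7’, 8.18 and 8.56 in ‘CH8’, and 8.62 and 7.35 in their hybrid ‘CH7/8’. It measured 6.78 and 7.42 in ‘CH9’, 4.93 and 4.66 in ‘CH7/9’, and 7.11 and 5.99 in ‘CH8/9’. In order of the line means, ‘CH7’ (4.43 ± 0.46, SD, n = 2) and ‘CH7/9’ (4.80 ± 0.19) overlapped, and a gap of 1.75 separated them from ‘CH8/9’ (6.55 ± 0.80). Above that gap, ‘CH8/9’ overlapped ‘CH9’ (7.10 ± 0.45), ‘CH9’ overlapped ‘CH7/8’ (7.98 ± 0.90), and ‘CH7/8’ overlapped ‘CH8’ (8.37 ± 0.27). The gene thus stood low in ‘CH7’ and ‘CH7/9’ and higher in the other 4 lines.

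*CESA9*, of the same secondary wall complex, measured 2.96 and 2.81 in ‘CH7’, 6.19 and 5.73 in ‘CH8’, and 6.46 and 5.36 in ‘CH7/8’. ‘CH9’ and ‘CH8/9’ were intermediate, with 4.24 and 5.24 in the former and 4.80 and 4.60 in the latter, and ‘CH7/9’ measured 3.83 and 3.28. Here ‘CH7/9’ (3.56 ± 0.38, SD, n = 2) lay above ‘CH7’ (2.88 ± 0.11) on both arrays and below ‘CH8/9’ (4.70 ± 0.14) on both. ‘CH8/9’ and ‘CH9’ (4.74 ± 0.71) overlapped, as did ‘CH7/8’ (5.91 ± 0.78) and ‘CH8’ (5.96 ± 0.33), and these 2 pairs of lines did not overlap each other. Both ‘CH7’ arrays were below the median of their own array, so a low value here is close to the weak signals.

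*BC1*, the COBRA-like gene, measured 3.23 and 2.46 in ‘CH7’, 5.95 and 5.08 in ‘CH8’, and 6.52 and 4.49 in ‘CH7/8’. Its values were 4.95 and 5.32 in ‘CH9’, 3.14 and 2.35 in ‘CH7/9’, and 4.53 and 3.57 in ‘CH8/9’. ‘CH7/9’ (2.74 ± 0.56, SD, n = 2) and ‘CH7’ (2.85 ± 0.54) overlapped at the bottom, and their arrays ranked between percentiles 20.6 and 44.6 of all probe sets. ‘CH8/9’ (4.05 ± 0.68) lay clear of its neighbours on either side, below both arrays of ‘CH9’ (5.14 ± 0.27). ‘CH9’, ‘CH7/8’ (5.51 ± 1.43) and ‘CH8’ (5.52 ± 0.61) overlapped. *BC1L2*, a gene of the same COBRA-like family that lies next to *BC1* with no gene between, ranged from 2.32 in ‘CH7’ to 3.60 in ‘CH8/9’ in its line means. The ‘CH7’ arrays of *BC1L2* ranked at percentiles 24.3 and 25.6, so the low end of this range is weak signal.

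*CESA8*, of the primary wall group, had the closest replicates, with at most 0.61 between the 2 arrays of a line. It measured 5.45 and 5.72 in ‘CH7’, 7.68 and 7.76 in ‘CH8’, and 6.80 and 7.41 in ‘CH7/8’. ‘CH9’ measured 7.41 and 7.22, ‘CH7/9’ 5.95 and 5.82, and ‘CH8/9’ 7.24 and 7.44. ‘CH7’ (5.58 ± 0.19, SD, n = 2) and then ‘CH7/9’ (5.88 ± 0.09) stood apart at the low end without overlapping. A gap of 1.23 followed, above which ‘CH7/8’ (7.11 ± 0.43), ‘CH9’ (7.31 ± 0.13) and ‘CH8/9’ (7.34 ± 0.14) overlapped each other, and ‘CH8’ (7.72 ± 0.06) was above all of them.

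*CSLA1*, of mannan synthesis, varied most between arrays of the same line. It measured 4.92 and 3.80 in ‘CH7’, 7.58 and 5.34 in ‘CH8’, and 5.81 and 8.25 in ‘CH7/8’. It was 8.04 and 7.74 in ‘CH9’, 6.10 and 4.05 in ‘CH7/9’, and 7.66 and 8.28 in ‘CH8/9’. Each neighbouring pair of lines in its order overlapped, from ‘CH7’ (4.36 ± 0.79, SD, n = 2) through ‘CH7/9’ (5.08 ± 1.45), ‘CH8’ (6.46 ± 1.59), ‘CH7/8’ (7.03 ± 1.73) and ‘CH9’ (7.89 ± 0.21) to ‘CH8/9’ (7.97 ± 0.44). In contrast to the other genes, its ‘CH9’ and ‘CH8/9’ means stood above that of ‘CH8’.

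The genes had been picked by comparisons among ‘CH7’, ‘CH8’ and ‘CH7/8’ and by the place of ‘CH7/8’ against the mean of its parents. ‘CH8’ exceeded ‘CH7’ by 3.94 for *CESA4*, 3.08 for *CESA9*, 2.67 for *BC1*, 2.14 for *CESA8* and 2.10 for *CSLA1*. ‘CH7/8’ exceeded ‘CH7’ by 3.55, 3.03, 2.66, 1.52 and 2.66 in the same order. Over all probe sets, 3.69% were called between ‘CH8’ and ‘CH7’ and 0.228% between ‘CH7/8’ and ‘CH7’. A call here means at least a 2-fold change with an adjusted p of at most 0.05 from limma.

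Whether the 2 hybrids of ‘CH9’ differed in wall synthesis genes was asked by setting ‘CH8/9’ against ‘CH7/9’, lines that share the parent ‘CH9’ and differ in the other. All 5 genes were higher in both ‘CH8/9’ arrays than in both ‘CH7/9’ arrays, an arrangement found for 18.7% of all probe sets. The parents by which these hybrids differ, ‘CH8’ and ‘CH7’, are also those whose difference was used to pick the genes. The direction is therefore not independent of that choice, and the share describes probe sets not picked in this way. *CESA8* rose 2.74-fold, by 1.45 (SE 0.21, 95% interval 0.98 to 1.93, adjusted p = 0.0149 from limma), and it was the only one of the 5 that was called, against 0.594% of all probe sets called higher and 1.82% called in either direction. The difference was 2.89 for *CSLA1* (SE 0.98, 95% interval 0.67 to 5.12, adjusted p = 0.161), the widest interval of the 5, and 3.92 or 1.87 without replicate 1 or 2 of ‘CH7/9’. It was 1.75 for *CESA4* (0.66 to 2.85, adjusted p = 0.102), 1.14 for *CESA9* (0.21 to 2.08, adjusted p = 0.182) and 1.30 for *BC1* (−0.15 to 2.76, adjusted p = 0.290). Over all probe sets the median difference was −0.11.

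The 6 arrays of ‘CH9’, ‘CH7/9’ and ‘CH8/9’ shared no array with the lines used to pick the genes. The direction of the difference is still not independent of that choice, because the parents ‘CH8’ and ‘CH7’ were used for it. The *CESA8* call was also made from these 6 arrays alone (adjusted p = 0.0177 from limma). It was lost without replicate 2 of ‘CH7/9’ (adjusted p = 0.112), without replicate 1 of ‘CH8/9’ (adjusted p = 0.0768) and without its replicate 2 (adjusted p = 0.0882). A two-sided exact permutation test of 2 arrays against 2 cannot go below p = 0.333. Leaf markers moved the other way in this comparison. Their summed linear intensity was 1162 and 1391 in ‘CH7/9’ and 248 and 476 in ‘CH8/9’, each of the 6 genes was lower in ‘CH8/9’ (median −1.11), and 2 of them were called lower. The 11 markers of dividing cells summed to 411 and 457 in ‘CH7/9’ and to 550 and 718 in ‘CH8/9’, with 9 genes above, a median of 0.66 and none called. The part of either in the wall gene differences was not tested.

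**Figure D2:**
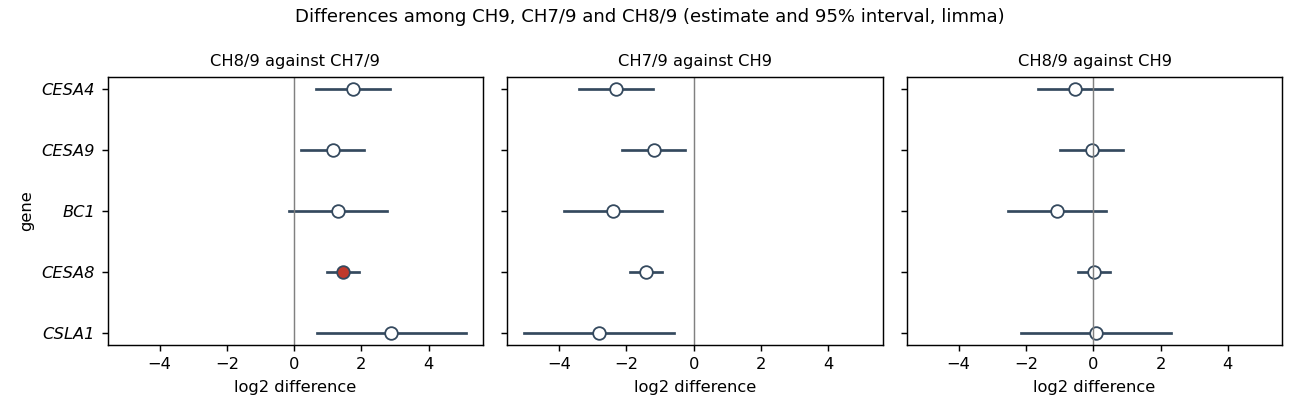
Log2 difference between lines (horizontal axis) of the 5 genes (vertical axis) for the 3 comparisons among ‘CH9’, ‘CH7/9’ and ‘CH8/9’. Circles are limma estimates, lines 95% intervals, and the filled circle is the only call, *CESA8* at 1.45 in ‘CH8/9’ against ‘CH7/9’.

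‘CH7/9’ was then set against its parent ‘CH9’. All 5 genes were lower in both ‘CH7/9’ arrays than in both ‘CH9’ arrays, an arrangement found for 14.1% of all probe sets. The other parent of this hybrid is ‘CH7’, a line used to pick the genes, so this direction is not independent of that choice either. The difference was −2.30 for *CESA4* (95% interval −3.40 to −1.21, adjusted p = 0.175 from limma), −2.39 for *BC1* (−3.85 to −0.93, adjusted p = 0.252) and −1.43 for *CESA8* (−1.90 to −0.95, adjusted p = 0.0814). It was −1.18 for *CESA9* (−2.12 to −0.25, adjusted p = 0.347) and −2.82 for *CSLA1* (−5.04 to −0.59, adjusted p = 0.347). None of the 5 was called by limma or by least squares, although 5 had an unadjusted p under 0.05. Only 0.0346% of all probe sets were called in this comparison, where 6417 of 54922 had such an unadjusted p. Without either array of ‘CH7/8’, a line that enters only through the shared spread, *CESA8* was called (adjusted p = 0.0437 with limma). Leaf markers were higher in ‘CH7/9’ than in ‘CH9’, where they summed to 674 and 699, in 6 of 6 genes by a median of 0.47, with none called, and their part was not tested.

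Against the same parent, none of the 5 genes was called in ‘CH8/9’. *CESA8* differed by 0.03 (95% interval −0.45 to 0.50, adjusted p = 0.995 from limma), so a change of more than 0.50 lay outside its interval in either direction. The interval was −0.98 to 0.89 for *CESA9*, around a difference of −0.04 (adjusted p = 0.996), and −1.64 to 0.55 for *CESA4*, around −0.55 (adjusted p = 0.887). *BC1* was the only one of the 5 whose arrays did not overlap, against 43.6% of all probe sets in either direction. It was lower in ‘CH8/9’, at −1.09 with an interval of −2.54 to 0.37 (adjusted p = 0.818). *CSLA1* differed by 0.08, but its interval of −2.15 to 2.30 allowed a change of 4-fold in either direction. Of the 5 genes, limma and least squares called 0, beside 0.1% of all probe sets called by limma. An unadjusted limma p under 0.05 was found for 0 of the 5 and for 3556 of all 54922 probe sets. Leaf markers were below ‘CH9’ in 5 of 6 genes (median −0.57) and markers of dividing cells above in 10 of 11 (median 0.47), with none called, and their part was not tested. ‘CH7/9’ and ‘CH8/9’ were compared with the same ‘CH9’ arrays, and both of these comparisons share arrays with that of the hybrids.

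Each hybrid was also placed against the mean of its parents, as a description, because ‘CH7’ and ‘CH8’ enter these means. For ‘CH7/8’ the place against this mean was itself used to pick the genes, so its excess is no independent result. ‘CH7/8’ lay above its parents' mean for all 5 genes, by 1.58 for *CESA4*, 1.49 for *CESA9*, 1.32 for *BC1*, 0.46 for *CESA8* and 1.62 for *CSLA1*, and 48.7% of all probe sets lay above. It reached close to ‘CH8’ for *CESA4*, *CESA9* and *BC1* and lay above both parents only for *CSLA1*. These excesses are smaller when the parents' intensities are averaged before the logarithm is taken, at 0.52, 0.78, 0.78, 0.09 and 1.26. Against this linear mean, replicate 2 of ‘CH7/8’ lay below for *CESA4* (−0.11) and *BC1* (−0.23), and replicate 1 for *CESA8* (−0.21). On the log2 scale both arrays of ‘CH7/8’ lay above the parents' mean for all 5 genes, but with unequal excesses. They were 2.21 and 0.95 for *CESA4* on replicates 1 and 2, 2.04 and 0.94 for *CESA9*, 2.34 and 0.31 for *BC1*, 0.15 and 0.76 for *CESA8*, and 0.40 and 2.84 for *CSLA1*.

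‘CH7/9’ went the other way and lay below its parents' mean for all 5 genes, with differences of −0.97 for *CESA4*, −0.26 for *CESA9*, −1.25 for *BC1*, −0.56 for *CESA8* and −1.05 for *CSLA1*. Against the linear mean they were larger, at −1.51, −0.54, −1.66, −0.81 and −1.94. In this hybrid 62.8% of all probe sets exceeded the parents' mean. Replicate 1 of ‘CH7/9’ was at the parents' mean for *CESA9* (0.02) and *CSLA1* (−0.03), so for these genes the shortfall was almost entirely on replicate 2. ‘CH8/9’ lay below its parents' mean by 1.19 for *CESA4*, 0.65 for *CESA9* and 1.28 for *BC1*, and its means for these 3 genes of the secondary wall were below both parents. For *CESA9*, however, the mean of ‘CH8/9’ differed from that of ‘CH9’ by only −0.04, and its arrays lay within those of ‘CH9’. Both ‘CH8/9’ arrays were below all 4 parental arrays only for *BC1*, and the share of all probe sets with this arrangement was not counted. The *CESA8* of ‘CH8/9’ differed from the parents' mean by −0.18 and its *CSLA1* by 0.79. In this hybrid 49.6% of all probe sets exceeded the parents' mean.

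**Figure D3:**
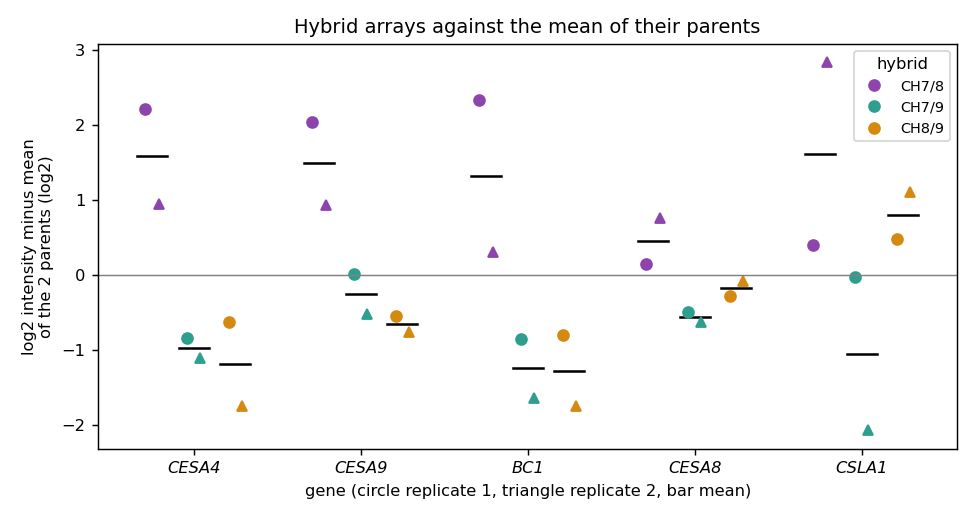
Log2 intensity of each hybrid array minus the mean of its parents on the log2 scale (vertical axis) for the 5 genes (horizontal axis). Circles are replicate 1, triangles replicate 2, bars the mean of the 2 arrays, and 0 is the mean of the parents. All 10 ‘CH7/8’ points lie above 0, and ‘CH7/9’ has 1 point above 0, at 0.02 for *CESA9*.

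The genes most like each member over the 12 arrays were searched among 2044 genes that had a name of their own and at least a median signal, the members left out. *CESA7*, the remaining synthase of the secondary wall complex, came first for *CESA4* (Pearson r = 0.94, Spearman rho = 0.94, over 12 arrays) and for *CESA9* (r = 0.96, rho = 0.94). Over all 23836 other genes with a probe set, named or not, *CESA7* ranked 11th for *CESA4* and 4th for *CESA9*. Among the named genes it came second for *BC1* (r = 0.92, 9th over all), after *OEP24*, a channel protein of the plastid envelope (r = 0.93). *PAL*, a phenylalanine ammonia-lyase of the entry to lignin synthesis, was among the first 3 for *CESA4* (r = 0.91) and *BC1* (r = 0.91), as was *cbp3* for *CESA4* (r = 0.91). *CESA1*, of the primary wall group, came first for *CESA8* (r = 0.98, rho = 0.93). The glucanase gene *GLU2* (r = 0.98) and a gene listed as *cellulase* (r = 0.96) followed it, and both were also next for *CESA9* (r = 0.90 and 0.91). The mannanase gene *MAN2*, the expansin gene *EXPB4* and the receptor kinase gene *ER2* were nearest to *CSLA1* (r = 0.95 for each). These arrays include the lines used to pick the members.

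Among the members themselves, *CESA4* and *CESA9* had r = 0.96 over the 12 arrays, *CESA4* and *BC1* 0.95, and *CESA9* and *BC1* 0.92. *CESA8* had r = 0.84 with *CESA4*, and *CSLA1* had r = 0.52 with *CESA4* and 0.76 with *CESA8*. All of these share the low ‘CH7’ arrays.

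The gap between the 2 arrays of a line does not enter the line means by which the genes were chosen, although the gaps of ‘CH7’, ‘CH8’ and ‘CH7/8’ entered the error of those comparisons. It is given as a description. *CESA9* and *BC1* differed between replicates in the same direction in 6 of 6 lines (r = 0.95 over 6 gaps), higher on replicate 1 in 5 lines and on replicate 2 in ‘CH9’. *CESA7* followed both in 6 of 6 lines (r = 0.94 with *CESA9*, 0.84 with *BC1*). *CESA4* had the same direction as each of these 3 in 5 of 6 lines, the exception being ‘CH8’, with lower correlations of 0.65 with *CESA9*, 0.79 with *BC1* and 0.70 with *CESA7*. Over all 23836 genes, *BC1* ranked 31st and *CESA7* 52nd by the correlation of their gaps with those of *CESA9*, whereas *CESA9* ranked only 1927th for *CESA4*. The largest gap of *BC1* was 2.02, in ‘CH7/8’, where *CESA4* had 1.27, *CESA9* 1.10 and *CESA7* 0.70.

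*CESA8* did not share these gaps. Its direction matched that of *CESA9* in 1 of 6 lines (r = −0.70), of *BC1* in 1 (r = −0.87) and of *CESA4* in 2 (r = −0.80), while it matched *CESA1* in 5 of 6 lines (r = 0.93). In ‘CH7/8’, replicate 2 was higher for *CESA8* (gap −0.61), *CESA1* (−0.63) and *CSLA1* (−2.44), while replicate 1 was higher for the secondary wall genes. In that line the markers of dividing cells also stood higher on replicate 2 (a summed intensity of 379 and 766), and their part in the gaps was not tested.

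**Figure D4:**
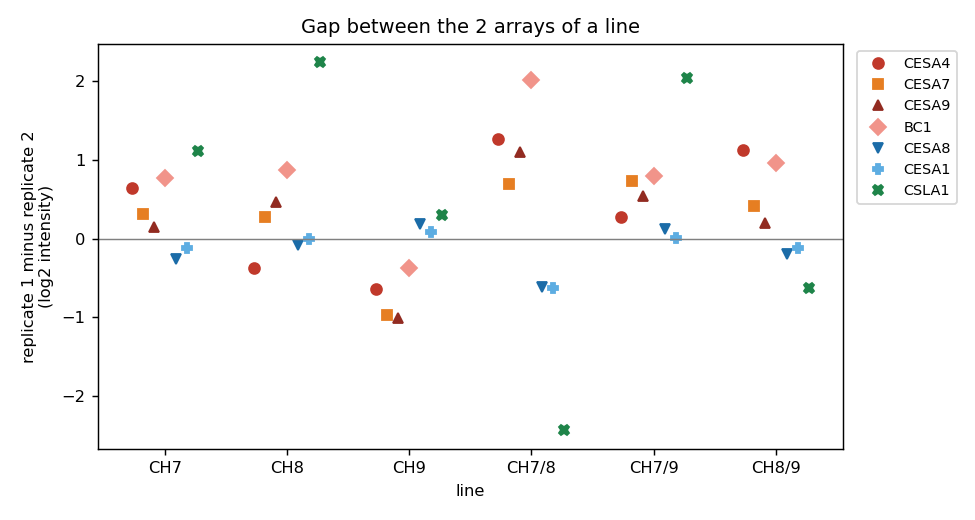
Replicate 1 minus replicate 2 in log2 intensity (vertical axis) for 7 genes in each line (horizontal axis), with 0 marking equal arrays. The secondary wall genes *CESA4*, *CESA7*, *CESA9* and *BC1* lie on the same side of 0 except *CESA4* in ‘CH8’, and *CESA8* and *CESA1* lie near 0 or, in ‘CH7/8’, on the other side.

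The annotation held 90 other genes of wall synthesis in lists of related function. Between ‘CH8’ and ‘CH7’, 8 were called higher and 2 lower, or 11.1% against 3.69% of all probe sets. The 5 members had been picked by this comparison, and the lists were chosen with earlier results of these data known. The 2 shares are therefore a description and no independent support. The share over all probe sets also includes 30747 that list no gene, whereas each wall gene was read from its brightest probe set. Cellulose synthases led the calls. All 6 of the other *CESA* genes were above ‘CH7’ (median 1.47), and 4 were called, namely *CESA6* (2.03, adjusted p = 0.0356 from limma), *CESA7* (1.75, 0.0366), *CESA1* (1.63, 0.0039) and *CESA3* (1.31, 0.0173). *CSLF6*, the synthase of the mixed-linkage glucan of grasses, was higher by 2.63 (adjusted p = 0.0127), and the sucrose synthase gene *SUS1* by 2.22 (adjusted p = 0.0352). *GLU2* rose by 1.79 and *CSLC2*, of the family linked to xyloglucan, by 1.32. The genes called lower were *BC1L6*, a COBRA-like gene, at −1.61, and *CAD8C*, named as a cinnamyl alcohol dehydrogenase of lignin synthesis, at −1.24, whose level in ‘CH8’ was below the first quartile of the arrays. The count of 10 rested on single arrays, since it was 2 and 3 without replicates 1 and 2 of ‘CH7’, 4 without replicate 2 of ‘CH8’ and 6 without either array of ‘CH9’.

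Of 5 other COBRA-like genes, *BC1L2* (1.04) and *BC1L7* (1.21) were above ‘CH7’ in ‘CH8’, as *BC1* was, and 3 were below, of which only *BC1L6* was called. *BC1L7* had the same order of line means as *BC1*, from 2.37 in ‘CH7/9’ to 3.93 in ‘CH8’, and was called in none of the comparisons. The ‘CH7/9’ arrays of *BC1L7* ranked at percentiles 28.9 and 18.1, so the low end of this order is weak signal. Its 2 arrays of ‘CH7/8’ lay 1.06 apart. *BC1L6* measured 6.92 and 6.90 in ‘CH7’ against 5.01 and 5.59 in ‘CH8’, the reverse of *BC1*. Its mean in ‘CH7/8’ was intermediate, at 6.49.

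In the other comparisons fewer of the 90 were called. *GLU2* was called higher in ‘CH7/8’ than in ‘CH7’ (1.49, adjusted p = 0.0094 from limma) and in ‘CH8/9’ than in ‘CH7/9’ (1.14, adjusted p = 0.0141). The laccase gene *LAC19* was called lower in ‘CH8/9’ than in ‘CH7/9’ (−1.30, adjusted p = 0.0091), with both ‘CH8/9’ arrays at very weak signal (1.57 and 1.31). No other gene of the 90 was called in these 2 comparisons. The calls made up 1.11% of the 90 between ‘CH7/8’ and ‘CH7’, against 0.228% of all probe sets. Between ‘CH8/9’ and ‘CH7/9’ they made up 2.22%, close to the 1.82% of all probe sets. Limma called none between ‘CH7/9’ and ‘CH9’ or between ‘CH8/9’ and ‘CH9’, and least squares called none there either. Over all probe sets, limma called 0.0346% and 0.1%. An unadjusted limma p under 0.05 was found for 14 and 5 of the 90, and for 6417 and 3556 of all 54922 probe sets.

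The other 6 cellulose synthases were all above ‘CH7/9’ in ‘CH8/9’ (median 0.56, none called), and 5 of 6 were below ‘CH9’ in ‘CH7/9’ (median −0.77, none called). *CESA1* came nearest to the threshold, at 0.89 in ‘CH8/9’ against ‘CH7/9’ (adjusted p = 0.0554 from limma), and *CESA2* varied least, by 1.45-fold over the lines. Of the 5 other *CSLA* genes none was called in any comparison. *CSLA7* had the largest difference between ‘CH8/9’ and ‘CH7/9’ (2.97, adjusted p = 0.0526) and *CSLA9* the next (1.65, adjusted p = 0.269). *CSLA7* averaged 6.44 in ‘CH8/9’ and 3.47 in ‘CH7/9’ with no overlap of arrays, the direction that *CSLA1* also had. *CSLA3* went the other way, at −1.57 (adjusted p = 0.0701). Of 9 xylan genes, *GT43C* had 1.53 (adjusted p = 0.0509) and *GT43G* −0.44 (adjusted p = 0.573).

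**Figure D5:**
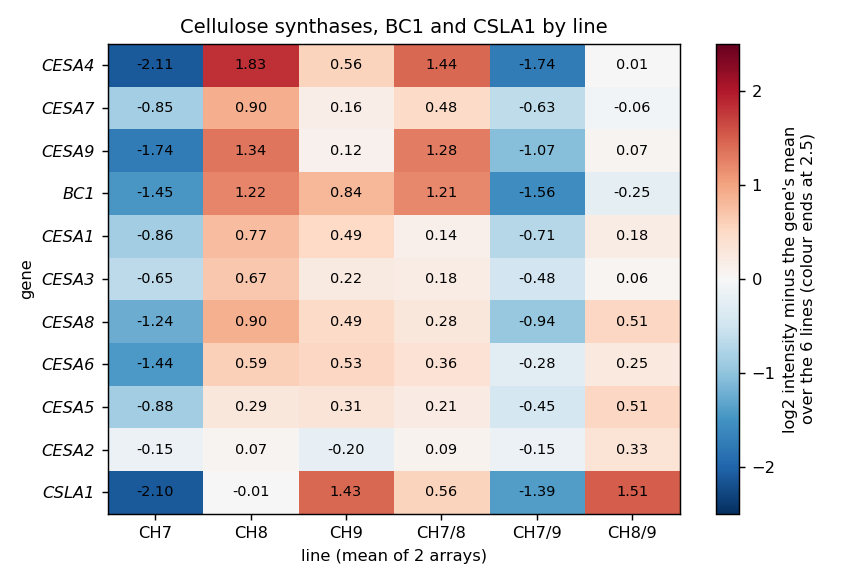
Mean log2 intensity of each line (columns) minus the mean of the gene over the 6 lines, for 11 genes (rows), with colour from blue (low) to red (high). *CESA4* is lowest in ‘CH7’ at −2.11 and highest in ‘CH8’ at 1.83, while *CESA2* stays within 0.33 of its mean.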

How the data were processed

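Total RNA of whole plants was hybridised to Affymetrix rice arrays. The authors deposited intensities on a linear scale, 1 value per probe set and array. Per the labels the tool was MAS5, in a version that the sources used here do not give, whereas the methods name RMA, so which of them made the table is not settled. The methods also name 3 biological replicates per line, of which 2 arrays per line were analysed here. Intensities were converted to log2 with no pseudocount and no filter. A mean per line was fitted over all 12 arrays and 54922 probe sets with limma 3.58.1 (lmFit and eBayes, R 4.3.3), p-values were adjusted by Benjamini-Hochberg over all probe sets, and a call needed a 2-fold change and an adjusted p no higher than 0.05. SAM (significance analysis of microarrays), named in the methods, has only 6 splits of 2 arrays against 2 and was an alternative. Its lowest q over all probe sets was 0.232 to 0.275, so it could call nothing, and its counts of 0 carry no information. Fits were tested on simulated data for ‘CH8/9’ against ‘CH7/9’. There, 23% of simulated 2-fold changes and 83.5% of 4-fold changes were called, with 19 unchanged probe sets called. Many true 2-fold changes would therefore go uncalled.

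Of the probe sets, 24080 listed 1 gene, 95 several and 30747 none, from the platform annotation with names updated through a RefSeq table of assembly ASM3414082v1. The probe set with the highest mean stood for a gene. The sources used here name no genome build for the arrays, so no coordinates are printed. The name BC1 also matched *bHLH081*, which was kept apart, and *CSLA1* also carries the synonym CSLA9, here kept for a different gene. Genes named from the other wall lists were those called in any comparison, at most 4 a list, or otherwise the 2 with the largest difference between ‘CH8/9’ and ‘CH7/9’, and *CESA2*, *CSLA3*, *BC1L2* and *BC1L7* were added after their values were seen. The members and lists were chosen with earlier results of these data known. The lists of secondary wall regulators and of xylem and culm markers matched no named gene. The 15 panicle markers had 0 calls between ‘CH8/9’ and ‘CH7/9’. Over 15 pairs of lines, deviations of same-numbered replicates correlated at r = −0.33 to 0.20, so the numbers were not taken to pair plants.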

Additional observations from a re-analysis of the deposited data

Results flagged for a closer look

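The hybrids departed from the mean of their parents in opposite directions for several of these genes, with both arrays of one hybrid above that mean and both arrays of another below it when the parents are averaged on the log2 scale. For *CESA4*, ‘CH7/8’ stood at 1.58 against −0.97 in ‘CH7/9’ and −1.19 in ‘CH8/9’, on the log2 scale. For *BC1*, it stood at 1.32 against −1.25 and −1.28. For *CESA8*, the values were smaller, at 0.46 against −0.56 and −0.18. *CESA9* had 1.49 in ‘CH7/8’ and −0.65 in ‘CH8/9’. *CSLA1* had 1.62 in ‘CH7/8’ and −1.05 in ‘CH7/9’, and ‘CH8/9’, at 0.79, also lay opposite to ‘CH7/9’, whose replicate 1 was only just below the mean (−0.03, against −2.07 for replicate 2). Against the linear mean of the parents, ‘CH7/8’ stood at 0.52 for *CESA4*, 0.78 for *BC1* and 0.09 for *CESA8*, with 1 of its 2 arrays below that mean for each, so for these 3 genes the arrays no longer all lay on opposite sides. These differences between hybrids were not tested, because the genes had been picked on ‘CH7’, ‘CH8’ and ‘CH7/8’. The place of ‘CH7/8’ against its parents' mean was part of that choice, so its side of these contrasts is not independent of it. How many of all probe sets had such an arrangement was not counted. The hybrids share parents, so the values do not stand alone.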

How the results depend on the processing

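With 2 arrays per line, single arrays decided several calls, and the causes were not tested. Among ‘CH9’, ‘CH7/9’ and ‘CH8/9’, *CESA8* was called between ‘CH8/9’ and ‘CH7/9’ in 22 of 28 settings (adjusted p or q from 0.0078 to 0.24). The number of the 5 genes called there fell from 1 to 0 under least squares (adjusted p = 0.0677), SAM (q = 0.240, which called no probe set in any comparison) and a 3-fold threshold, and ranged from 0 to 1 when an array was left out. Between ‘CH7/9’ and ‘CH9’ it likewise ranged from 0 to 1. The differences of the 5 genes in these 2 comparisons kept their sign in every setting, but not their size. With a pseudocount of 16, *BC1* was 0.53 and *CESA9* 0.59 between ‘CH8/9’ and ‘CH7/9’, and −1.16 and −0.64 between ‘CH7/9’ and ‘CH9’. Without replicate 1 or 2 of ‘CH7/9’, *CSLA1* was −3.84 or −1.79 against ‘CH9’, and without replicate 1 or 2 of ‘CH9’, *CESA9* was −1.69 or −0.68.

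Between ‘CH8/9’ and ‘CH9’, small differences changed sign. *CESA8* was −0.030 with arrays centred on their medians. Without ‘CH9’ replicate 2, *CESA9* was 0.46, *CESA8* −0.069 and *CSLA1* −0.073. Without ‘CH8/9’ replicate 2, *CESA4* was 0.015, *CESA9* 0.058, *CESA8* −0.075 and *CSLA1* −0.24. Over all arrays left out in turn, the range was −1.11 to 0.015 for *CESA4*, −0.55 to 0.46 for *CESA9*, −0.075 to 0.13 for *CESA8* and −0.24 to 0.39 for *CSLA1*. Of the 90 other wall genes, the 10 called between ‘CH8’ and ‘CH7’ became 4 with a pseudocount of 16, 5 with only those lines, 2 under least squares and 0 under SAM. Leaving out an array gave 2 to 12, with 2 and 3 without ‘CH7’ replicates 1 and 2, 4 without ‘CH8’ replicate 2 and 6 without either ‘CH9’ array. Between ‘CH7/8’ and ‘CH7’, 1 became 0 with only those lines, under least squares, under SAM and at 3-fold, and 0 to 4 without an array, with 0 without either ‘CH7’ array or ‘CH7/8’ replicate 2 and 4 without ‘CH7/8’ replicate 1. Between ‘CH8/9’ and ‘CH7/9’, 2 became 1 with the pseudocount, with only those lines or under least squares, 0 under SAM and at 3-fold, 4 with a trended variance, and 5 in the 6 arrays of ‘CH9’ and its hybrids or with probe sets averaged per gene. It was 0 to 8 without an array, with 8 without ‘CH7/9’ replicate 1, 4 without any single array of ‘CH8’ or ‘CH7/8’, 1 without ‘CH8/9’ replicate 1, and 0 without ‘CH7/9’ replicate 2 or ‘CH8/9’ replicate 2. Between ‘CH7/9’ and ‘CH9’, 0 became 1 with the pseudocount and 0 to 2 without an array, with 2 without ‘CH7/9’ replicate 1 and 1 without either ‘CH7/8’ array. With the replicate number as a block, 1 of the 5 genes was called between ‘CH8/9’ and ‘CH7/9’ (*CESA8*, adjusted p = 0.0257 from limma), and the other wall genes called were 9 between ‘CH8’ and ‘CH7’, 1 between ‘CH7/8’ and ‘CH7’, 3 between ‘CH8/9’ and ‘CH7/9’ and 0 between either hybrid and ‘CH9’. A pseudocount of 16 brought the difference of *BC1* in ‘CH7/9’ from its parents' mean to −0.60. The linear mean of the parents was chosen after seeing the data.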

Other observations

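The name BC1 also belongs to *bHLH081*, a bHLH transcription factor gene. It measured 1.88 and 2.01 in ‘CH7’, 5.75 and 4.96 in ‘CH8’, 4.07 and 4.89 in ‘CH9’, 2.61 and 5.99 in ‘CH7/8’, 3.46 and 3.06 in ‘CH7/9’, and 5.38 and 5.86 in ‘CH8/9’ (log2 intensity). It was low in ‘CH7’ and ‘CH7/9’, as the wall genes were, and its ‘CH7/8’ arrays lay 3.38 apart with replicate 2 higher, the direction of *CESA8* and *CSLA1* and not of the COBRA-like *BC1*.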
